A study of Homo sapiens with 30 samples.

Results

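The 4179 regions described here are places at human gene ends where peaks of RING1 and of RNF2 lay together in 1 pair of CUT&RUN peak lists and where the other pair held no peak. They were chosen by merging the overlapping or touching peaks of 4 lists on chromosomes 1 to 22, X and Y, and keeping regions with a peak of both antibodies in the pair called set A here, none of either antibody in the pair called set B, and an annotated end of a protein-coding RefSeq gene within 2 kb. They make up 21% of the 19856 merged regions and 57.4% of the 7277 gene-end regions that hold both set A peaks. The presence of peaks chose them, so presence, width and fold are given below as a description and carry no test.

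The cells were monolayer cultures of neural progenitors derived from the established line H9, which is a human embryonic stem cell line. The lists come from unedited wild-type cells, with 2 libraries for each of the antibodies against RING1 and RNF2. The series has 30 libraries in all, and the other 26, which cover edited RING1 and RNF2 genotypes and antibodies against H2AK119ub1 and IgG, were not analysed here. In CUT&RUN, a nuclease tethered to the antibody frees the DNA beside the bound protein, so a peak marks where the protein was found and not how strongly the gene was expressed.

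RING1 and RNF2 are paralogous E3 ubiquitin ligases, and either one can form the catalytic core of Polycomb repressive complex 1 (PRC1), which attaches a single ubiquitin to histone H2A to give H2AK119ub1. Canonical PRC1 carries a CBX subunit that reads the H3K27me3 mark of PRC2, while variant PRC1 carries RYBP or YAF2, and in one variant form KDM2B brings it to unmethylated CpG islands. In progenitor cells the complex is best known for holding developmental transcription factor genes silent. CpG islands also cover the promoters of most housekeeping genes.

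Set A held 12891 RING1 and 16263 RNF2 peaks, and set B held 659 RING1 and 5901 RNF2 peaks. The labels tie neither set to a replicate number and do not say whether the libraries came from separate cultures. A region missing from set B was not called there, at a depth not stated in the labels or files, and its absence from the cells was not measured. Each antibody has 1 set A list, so no value below has a replicate error.

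The promoters of 7 genes are printed first, from 1281 genes whose whole RefSeq promoter window lies inside the set A peaks of both antibodies. CNOT9, OPA3 and DACT3 stand at 3 of the 10 regions with the highest folds. RPS13, POLE2, FANCA and MRPL24 rank highest of such genes for the cytosolic ribosome, DNA replication, homologous recombination and the mitochondrial ribosome. Each sequence is the 250 bases before the RefSeq transcription start, 5′ to 3′ on the gene's strand (RefSeq, GRCh38.p14). Capitals mark matches, on either strand, to 10 short motifs: CCGGAAG (ETS), GCGCATGCG (NRF1), GGGCGG (SP/KLF), AAGATGGC (YY1), CCAAT (NFY), TGACGTCA (CREB/ATF), CACGTG (E-box), GCGGGAA (E2F6), TATAAA (basal promoter element) and CTCGCGAGA (ZBTB33-type).

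CNOT9 (chr2:218568589-218568838, + strand): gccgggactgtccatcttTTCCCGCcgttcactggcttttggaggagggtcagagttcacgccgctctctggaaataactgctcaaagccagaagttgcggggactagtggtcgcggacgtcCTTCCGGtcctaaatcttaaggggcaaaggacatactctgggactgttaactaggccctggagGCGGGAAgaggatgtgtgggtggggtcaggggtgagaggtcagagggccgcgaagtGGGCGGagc

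OPA3 (chr19:45584803-45585052, - strand): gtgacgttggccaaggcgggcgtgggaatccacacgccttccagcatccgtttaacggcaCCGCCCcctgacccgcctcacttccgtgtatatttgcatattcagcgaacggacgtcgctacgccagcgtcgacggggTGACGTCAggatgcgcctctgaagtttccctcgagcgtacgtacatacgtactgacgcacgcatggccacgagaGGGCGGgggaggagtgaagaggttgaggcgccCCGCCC

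DACT3 (chr19:46661183-46661432, - strand): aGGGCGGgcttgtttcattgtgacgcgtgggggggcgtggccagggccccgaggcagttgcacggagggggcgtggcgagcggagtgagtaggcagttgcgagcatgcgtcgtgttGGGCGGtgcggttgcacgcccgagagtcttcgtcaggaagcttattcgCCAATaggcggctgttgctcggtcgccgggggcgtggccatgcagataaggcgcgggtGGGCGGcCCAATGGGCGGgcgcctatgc

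RPS13 (chr11:17077668-17077917, - strand): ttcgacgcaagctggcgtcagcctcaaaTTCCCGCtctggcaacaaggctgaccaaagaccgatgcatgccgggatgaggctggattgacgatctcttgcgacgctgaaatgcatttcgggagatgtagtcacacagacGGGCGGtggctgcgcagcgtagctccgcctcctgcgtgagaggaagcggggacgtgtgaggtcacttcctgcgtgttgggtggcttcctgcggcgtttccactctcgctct

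POLE2 (chr14:49688215-49688464, - strand): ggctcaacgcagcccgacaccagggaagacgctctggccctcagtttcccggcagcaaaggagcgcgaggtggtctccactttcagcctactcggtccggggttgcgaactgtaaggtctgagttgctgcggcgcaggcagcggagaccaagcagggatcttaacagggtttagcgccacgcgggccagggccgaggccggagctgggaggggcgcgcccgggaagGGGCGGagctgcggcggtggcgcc

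FANCA (chr16:89816648-89816897, - strand): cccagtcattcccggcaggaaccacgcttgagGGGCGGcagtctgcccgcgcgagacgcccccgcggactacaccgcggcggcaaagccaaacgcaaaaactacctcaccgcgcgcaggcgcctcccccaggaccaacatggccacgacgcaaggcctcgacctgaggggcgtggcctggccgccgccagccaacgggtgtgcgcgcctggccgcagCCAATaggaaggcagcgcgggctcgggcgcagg

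MRPL24 (chr1:156741089-156741338, - strand): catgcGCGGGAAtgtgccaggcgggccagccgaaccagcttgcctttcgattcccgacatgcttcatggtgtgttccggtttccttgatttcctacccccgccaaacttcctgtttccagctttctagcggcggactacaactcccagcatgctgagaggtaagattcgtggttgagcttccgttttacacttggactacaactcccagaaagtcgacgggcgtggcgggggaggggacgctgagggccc

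These windows are rich in CpG. Over 300 bases, which add the first 50 of the transcript, CNOT9 had 60.3% G+C and 21 CpGs, OPA3 had 63% and 32, and DACT3 had 69.7% and 33. FANCA had 72.3% G+C and 37 CpGs, and MRPL24 had the lowest G+C of the 7, at 58.7%, with 22 CpGs. GGGCGG was found in each of the 7 windows except that of MRPL24, and TATAAA in none of the 7. SNX15, DOHH and MTHFD1, also at regions with the highest folds, met the same condition and are not printed. Neither motif was found in their windows. A match is a run of letters and not a bound site.

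The regions with the highest folds reached genes of varied function. The fold is the authors' own value for each peak, a ratio of signal over background, and it describes and ranks regions within set A. Regions were ranked by the smaller of their RING1 and RNF2 folds, so the order sets values of 2 lists side by side and carries no other meaning. The region over CNOT9, a subunit of the CCR4-NOT mRNA deadenylase, led this ranking, with a RING1 fold of 8.61 and an RNF2 fold of 10.8 across 1242 bp (chr2:218567916-218569157), and it also covered the end of USP37, a deubiquitinase. OPA3, a mitochondrial protein gene mutated in a form of optic atrophy, had folds of 8.11 for RING1 and 9.82 for RNF2 in an 887 bp region (chr19:45584294-45585180). DACT3, a Dishevelled-binding antagonist of Wnt signalling, had 8.71 and 8.02 (chr19:46659895-46662233). CNOT9 and OPA3 thus carried the strongest RNF2 peaks of the 10.

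SIVA1, a pro-apoptotic protein gene, had the highest RING1 fold of the 10 regions, 9.82, beside an RNF2 fold of 7.61. EEF2KMT, the lysine methyltransferase of translation elongation factor eEF2, had a RING1 fold of 8.24 and an RNF2 fold of 8.35. INPP5A, an inositol polyphosphate 5-phosphatase, had 8.80 and 7.72. SNX15, a sorting nexin of the endosome, DOHH, which completes the hypusine residue of eIF5A, MTHFD1, a folate enzyme of one-carbon metabolism, and C16orf95 made up the rest, with RING1 folds between 7.28 and 7.80 and RNF2 folds between 7.17 and 8.28. Each of the 10 regions held 1 peak of each antibody, and none of their genes is in the HOX, homeobox, forkhead, T-box, SOX or bHLH lists described below.

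Most members were weaker than these. The median RING1 fold was 3.99 (quartiles 3.64 and 4.51, range 2.98 to 9.82), and the median RNF2 fold was 4.26 (3.78 and 4.94, range 2.92 to 10.8). The 1930 regions of the same peak pattern away from gene ends had medians close to these, 3.95 for RING1 and 4.16 for RNF2. A region with both set A peaks is called one that set B also held if it had a set B peak of either antibody. Leaving out the set B RNF2 list gave 7037 members in place of 4179, so most such gene-end regions rested on that list. At the 3098 gene-end regions that set B also held, the median set A folds were 4.55 for RING1 and 5.10 for RNF2. DOCK1, a guanine nucleotide exchange factor of Rac, is a typical member, with a RING1 fold of 3.83 and an RNF2 fold of 4.03 in 1289 bp. PEX10, of the peroxisomal import machinery, had 3.84 and 4.13, FGF13, an intracellular FGF homologous factor, had 4.59 and 3.83, RASSF4, a Ras-association domain protein, had 4.04 and 3.84, and the end shared by ACTN3 and ZDHHC24 had 3.83 and 3.95.

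The 2 antibodies ranked the members alike only in part. Across the 4179 members the RING1 and RNF2 folds correlated with a Spearman rho of 0.49 and a Pearson r of 0.55, against a rho of 0.76 across the 3098 regions that set B also held. This correlation is a description: the points share 2 libraries, and both values had to pass a peak caller. Both folds reached 6 in 66 members (1.58%), against 475 (15.3%) of the regions that set B also held.

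**Figure D1:**
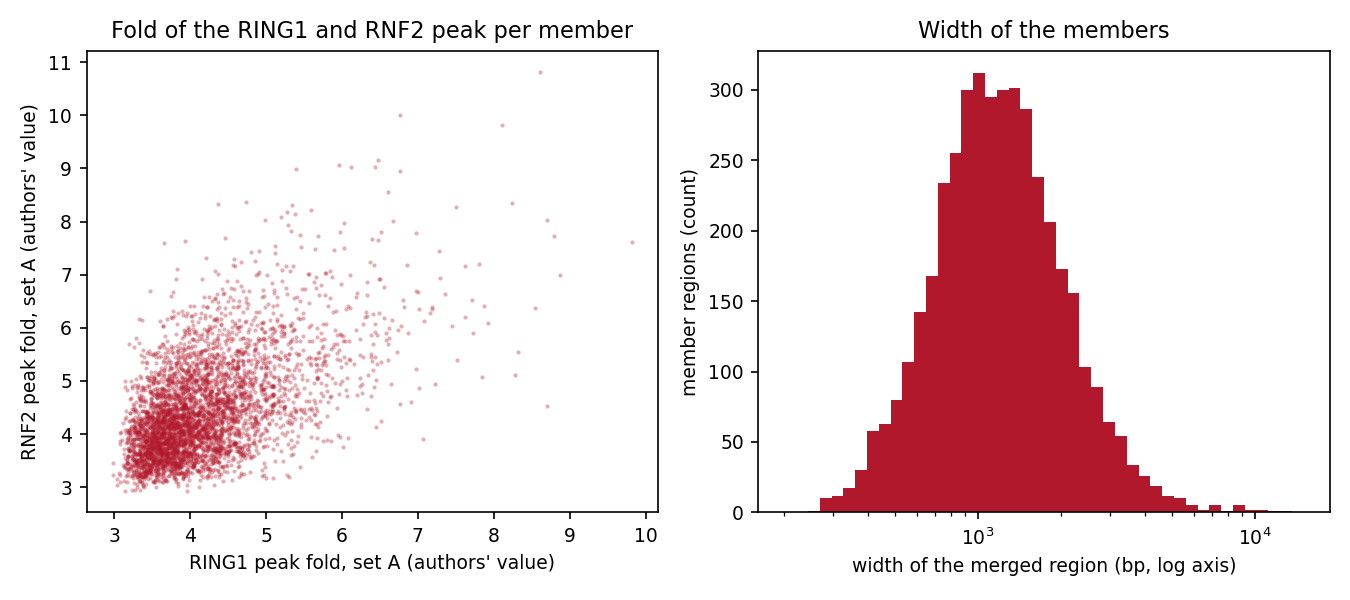
Left, RING1 fold (x axis) against RNF2 fold (y axis) of each of the 4179 member regions, 1 point per region, as the authors' ratios in set A. Right, the number of members by width of the merged region in bp (log axis). Most points lie near the medians of 3.99 and 4.26, and the CNOT9 region is the point with the highest RNF2 fold, 10.8.

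Members were narrow. The median width was 1172 bp (quartiles 832 and 1679), against 2230.5 bp (1481 and 3808.5) for gene-end regions that set B also held, which set B peaks can widen, and 16907 bp for the 290 regions of all 4 lists. Between 500 and 2000 bp lay 3273 members (78.3%), and 35 (0.838%) were wider than 5 kb, against 551 (17.8%) of the regions that set B also held. The 1930 regions of the same peak pattern away from gene ends had a median width of 1130 bp, close to that of the members. A RING1 peak had a median of 656 bp and an RNF2 peak of 1046 bp. The longest RNF2 peak of set A had a median of 1046 bp in members and 1979 bp in the regions that set B also held. In 2118 members (50.7%) the RING1 peak lay inside the RNF2 peak.

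The 5 widest members lay at genes of several kinds. PRRX1, a paired-type homeobox gene of mesenchyme, had the widest, 12690 bp, with a RING1 fold of 5.34 and an RNF2 fold of 8.32. FERD3L, a neural bHLH repressor, had 10698 bp with folds of 5.09 and 6.28, and SP6, a zinc finger factor of the SP family, had 10087 bp with 6.55 and 6.78. The metallothionein genes MT1F, MT1G and MT1H shared an 11603 bp region whose folds were low, 4.17 for RING1 and 4.11 for RNF2, and LOC124909494 lay beside one of 10242 bp.

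At the other end, the narrowest members were 266 bp at GAP43, a growth cone protein gene, 269 bp at ISG15, a ubiquitin-like protein induced by interferon, 271 bp at ZSCAN25, a zinc finger gene, 273 bp at RPL21, of the large ribosomal subunit, and 275 bp at TWF1, an actin-binding protein gene. GAP43 had a RING1 fold of 3.73 and an RNF2 fold of 3.97, and ISG15 had 3.19 and 3.94. ZSCAN25 had the highest folds of the 5, 4.64 and 5.56.

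The share of gene-end regions that were members varied along the set A values. By the length of the longest RNF2 peak of set A it was 85.4% in the lowest decile of the 7277 regions and 10.6% in the highest, and by that of the longest RING1 peak 80.5% and 8.1%. By merged width, which set B peaks can add to in every region except the members, it was 92.9% and 8.65%. By RNF2 fold it was 81.9% in the lowest decile and 12.6% in the highest, and by RING1 fold 76.6% and 20.2%. The set B lists were the shorter ones, and how far list length accounts for these gradients was not tested. When each set A list was cut to the length of its set B counterpart by significance, 89 members at 114 genes were left.

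**Figure D2:**
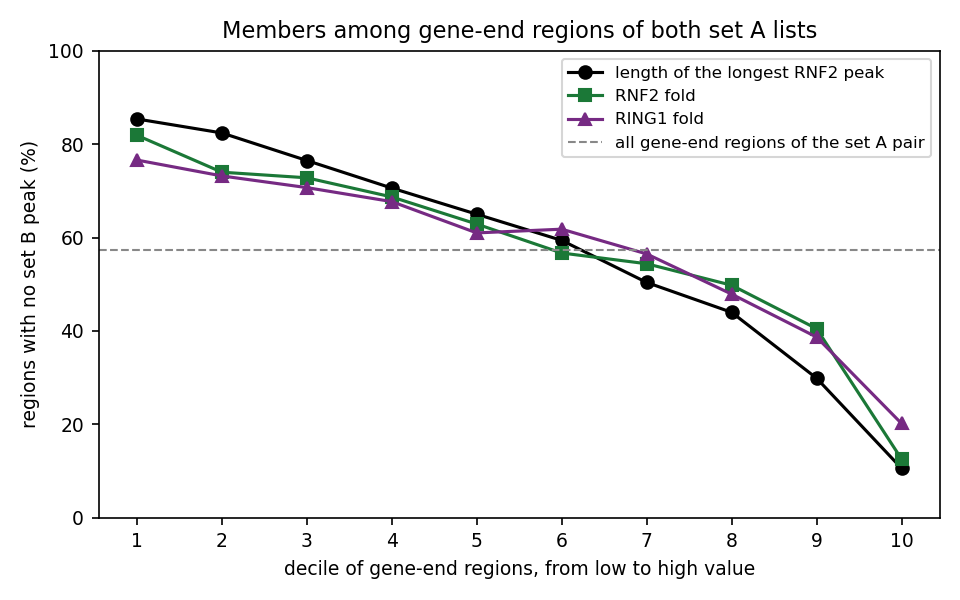
Share of the 7277 gene-end regions with both set A peaks that had no set B peak (y axis, percent), by decile of the length of the longest RNF2 peak of set A, RNF2 fold and RING1 fold from low to high (x axis). The dashed line is the share over all these regions, 57.4%, and the lines fall to 10.6%, 12.6% and 20.2% in the highest decile.

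Members lay on gene starts. Of the 4431 gene ends near members whose strand the RefSeq promoter table gave, 3859 (87.1%) were 5′ ends and 572 were 3′ ends, against 77.9% 5′ ends at regions that set B also held. A gene end fell inside the region itself in 3546 members (84.9%), and 238 (5.7%) lay more than 500 bp from the nearest end. At least 1 known 5′ end was near 3364 members (80.5%), 118 had 3′ ends only, and the strand was not known for the remaining 697.

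The 2 kb limit sits in the sparse tail of these distances. The outermost members were 1994 bp from TM9SF2, an endomembrane protein gene, 1967 bp from NFU1, an iron-sulfur cluster scaffold gene, and 1964 bp from SLC8A2, a sodium-calcium exchanger gene. Just outside were regions 2009 bp from GIGYF1, 2036 bp from GRIN2D and 2041 bp from KXD1. RING1 folds were between 4.15 and 4.37 inside and between 3.30 and 4.99 outside.

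Aligned on the 5′ end of 2547 members with 1 such end, the RING1 peak was centred at a median of 48 bp downstream, with median edges at -296 and 371 bp, and the RNF2 peak at 76 bp, with edges at -446 and 586 bp. The RNF2 peak covered the 5′ end itself in 79.9% of these members and the RING1 peak in 67.9%. In the 1789 regions that set B also held, the centres lay farther downstream, at 163.5 bp for RING1 and 211 bp for RNF2, and the downstream edges at 862 and 1235 bp. Coverage extended farther downstream than upstream in both kinds. At 1000 bp downstream against 1000 bp upstream the RNF2 peak covered 26% against 12.5% of these members, and 58.2% against 35.7% of the regions that set B also held. For the RING1 peak the shares were 14.1% against 5.46% of members, and 40.2% against 21.6%.

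**Figure D3:**
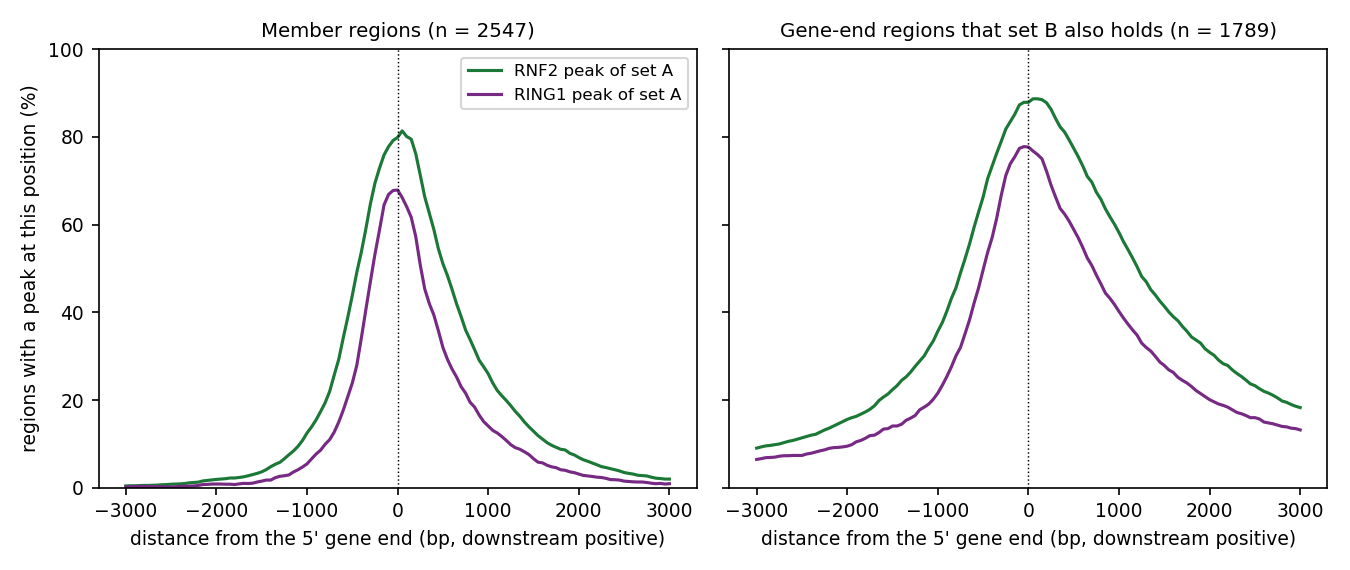
Share of regions with a set A peak (y axis, percent) at each distance from the 5′ gene end (x axis, bp, downstream positive), for 2547 member regions on the left and 1789 gene-end regions that set B also held on the right. RNF2 is green and RING1 purple, and the member profile is narrower, with 79.9% covered by RNF2 and 67.9% by RING1 at the start.

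The promoters of member genes were CpG-rich, like those of the regions set B also held. The CpG ratio is the number of CpGs over the number that the C and G content alone would give. Its median was 0.859 over the 3833 genes with a member at the 5′ end, 0.853 over 2827 genes with a region that set B also held, and 0.379 over 6601 genes with no set A peak. Median G+C contents were 66.7%, 67.7% and 56%. A member stood at 3380 of the 10423 promoters with a ratio of at least 0.6 (32.4%) and at 453 of the other 5420 (8.36%).

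**Figure D4:**
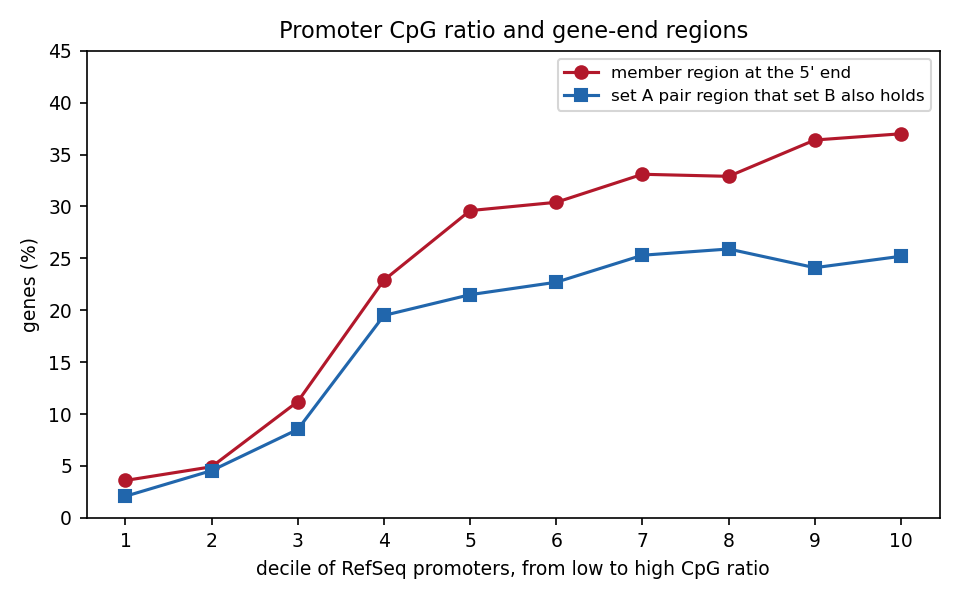
Share of genes (y axis, percent) with a member region at the 5′ end (red) and with a set A pair region that set B also held (blue), by decile of the CpG ratio of the RefSeq promoter from low to high (x axis). The member share is 3.6% in the lowest decile and 37% in the highest, and the blue line ends at 25.2%.

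The shares of short motifs differed between member promoters and all promoters and, for a few, from promoters where set B also held the region. None of these differences was tested. The sets were not matched for CpG content: 88.2% of member promoters and 65.8% of all promoters had a CpG ratio of at least 0.6. The 300-base windows held CCGGAAG in 17.3% of member genes, against 12.6% where set B also held the region and 14.2% of all 15843 promoters. AAGATGGC stood in 5.53%, against 3.54% and 3.91%, and CTCGCGAGA in 1.7%, against 0.778% and 1.05%. GGGCGG was common to both kinds, in 74.2% and 75.5%, and was found in 58.5% of all promoters. TATAAA was in 5.53% and 5.8%, against 9.63% of all promoters, and CCAAT in 38.2% and 40.3%, against 36.4%. The remaining motifs were close between the 2 kinds: CACGTG in 12.2% and 11.4%, against 8.88% of all promoters, GCGGGAA in 11.2% and 11.6%, against 8.6%, GCGCATGCG in 3.86% and 3.4%, against 2.76%, and TGACGTCA in 3.5% and 2.79%, against 2.59%.

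A member lay within 2 kb of an end of 4980 of the 20037 protein-coding genes, or 24.9%. A region that set B also held lay at 3881 genes (19.4%), and any region with both set A peaks at 8572 (42.8%). The member shares of 34 gene lists are read against the 24.9%, and 22 lists stood above it. For some lists the 95% interval of the share, with genes taken as independent, included 24.9%. RNA polymerases (15.6% to 48.7%) were such a list above it and kinetochore genes (3.63% to 29.8%) one below it. For others, such as end joining (29.9% to 80.2%) and other homeobox genes (2.76% to 12%), the interval did not include it. The intervals depend on the number of genes in a list and hold no spread between libraries. Genes that share a region are not independent, so the intervals are a description only. None of these shares was tested, and the lists were chosen with earlier results of these data known.

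**Figure D5:**
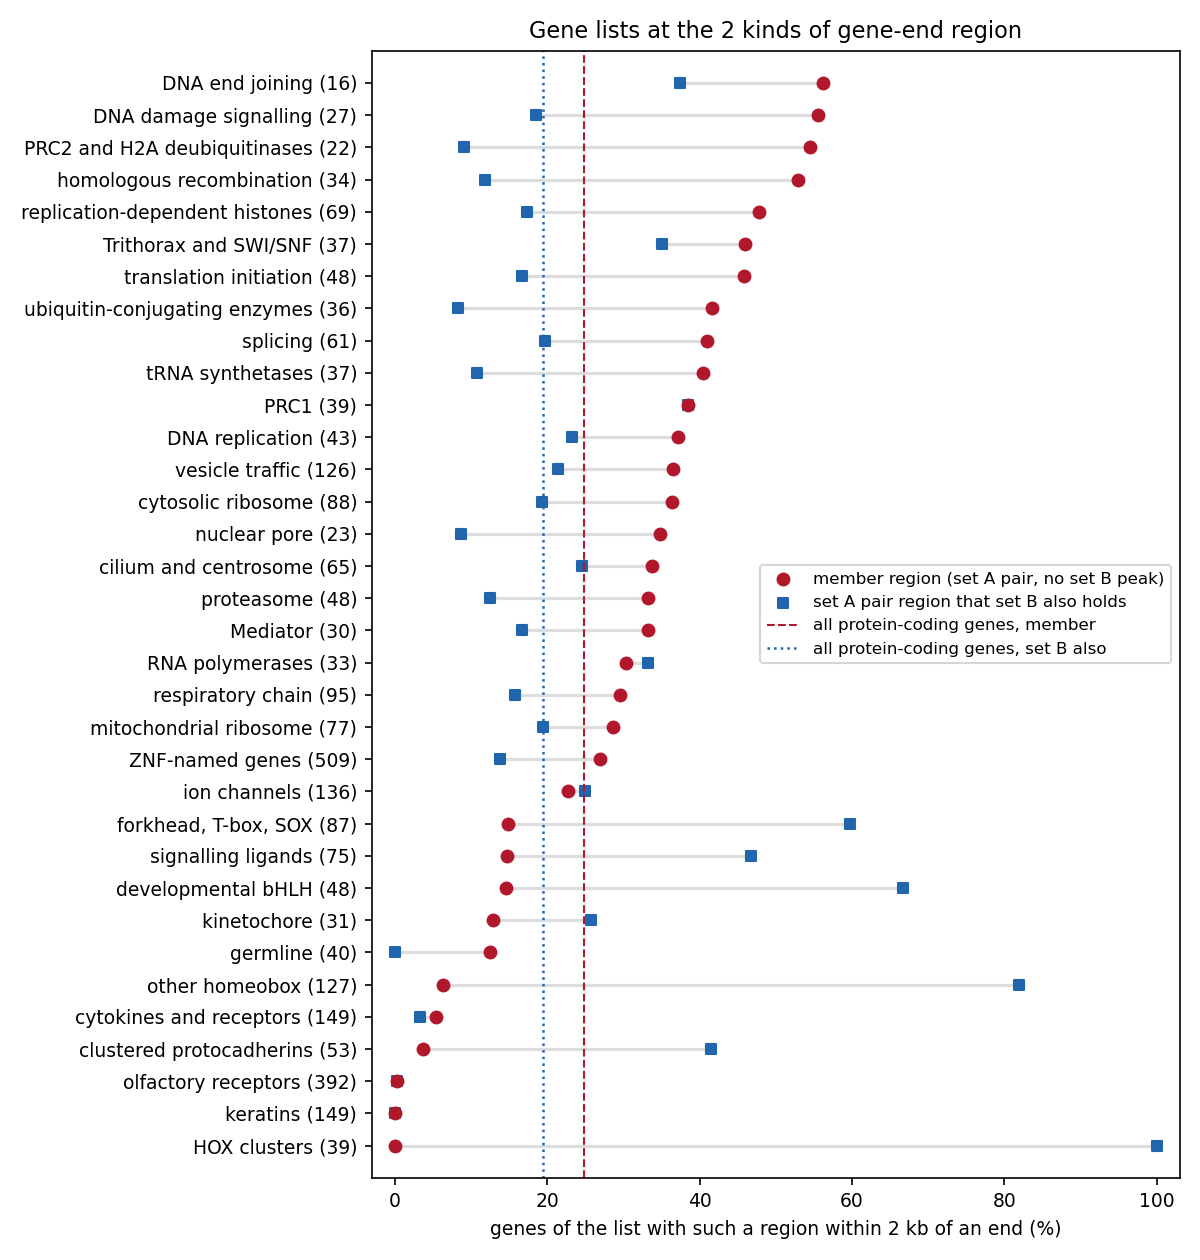
Share of the genes of each list (y axis, number of genes in brackets) with a member region (red circles) and with a set A pair region that set B also held (blue squares) within 2 kb of an end (x axis, percent). The dashed red and dotted blue lines mark 24.9% and 19.4% of all protein-coding genes, and the repair lists at the top lie beyond 50% for members while the HOX clusters at the bottom have 0 members.

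With the lists as deposited, the 4 highest member shares belonged to the 3 DNA repair lists and to PRC2 with the H2A deubiquitinases. Of 77 genes of end joining, homologous recombination and damage signalling, 42 (54.5%) had a member and 15 (19.5%) a region that set B also held. The 42 regions had RING1 folds between 3.07 and 6.58 (median 4.19) and RNF2 folds between 3.33 and 7.73 (median 4.53), and a median width of 886 bp, so most were ordinary members in strength. Of these genes 4 had both kinds of region, 17 had set A peaks but no region with both antibodies, and 7 had no set A peak. The 42 include 23 whose region also reached the end of another gene, so a peak there cannot be assigned to the repair gene alone.

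End joining, which seals double-strand breaks without a template, had 9 of 16 genes at members (56.2%). It also had 6 (37.5%) at regions that set B also held, against 19.4% of all genes. DCLRE1C, the Artemis nuclease, had a RING1 fold of 4.50 and an RNF2 fold of 5.10, and TDP2, which removes topoisomerase II adducts, had 4.16 and 4.47. The members APLF, POLL, PAXX, XRCC6, LIG4 and XRCC4, named here after their values were seen, had RING1 folds from 3.23 to 4.70, and XRCC6, the Ku70 subunit, had an RNF2 fold of 4.98.

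Homologous recombination and the Fanconi anaemia pathway had 18 of 34 genes at members (52.9%), against 11.8% at regions that set B also held. FANCC, of the Fanconi core complex, had a RING1 fold of 6.58 and an RNF2 fold of 5.90 across 2644 bp. FANCA, another core complex subunit whose promoter is printed above, had 4.74 and 6.48. Damage signalling had 15 of 27 genes (55.6%) at members and 5 (18.5%) at regions that set B also held. CLSPN, the checkpoint adaptor Claspin, had 6.55 and 6.18, USP1, which removes ubiquitin from FANCD2 and PCNA, had 5.18 and 5.30, and ABRAXAS1, the scaffold of the BRCA1-A complex, had 4.75 and 4.71.

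CpG content differs between gene lists, so the shares were also taken within promoters of a CpG ratio of at least 0.6, at 5′ ends. There a member stood at 8 of 13 end joining genes (61.5%), 12 of 22 damage signalling genes (54.5%) and 15 of 29 recombination genes (51.7%), against 32.4% of all such promoters. The 3 shares stood above that background, on few genes and with no interval computed. Whether CpG content accounts for the shares of the full lists was not tested. With peaks of a −log10 q of at least 2 they were 37.5%, 48.1% and 32.4%, against 20.4% of all genes, and end joining then stood below translation initiation (45.8%) and histones (39.1%), and recombination below several further lists. With set A cut to the length of set B, 0 of 16 end joining genes, 1 of 34 recombination genes and 1 of 27 damage signalling genes had a member, against 0.569% of all genes.

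The Polycomb system's own genes were among the members. RNF2 had a member at its 5′ end, with a RING1 fold of 4.86 and an RNF2 fold of 4.51 in 1579 bp, while RING1 had no peak of any of the 4 lists within 2 kb. Of 39 PRC1 genes, 15 (38.5%) had members and as many had regions that set B also held. PCGF3, which defines a variant PRC1, had folds of 5.69 and 5.54, FBRSL1, a relative of the AUTS2 subunit, had 6.10 and 5.39, and RYBP had 5.31 and 5.51.

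PRC2 and the H2A deubiquitinases had 12 of 22 genes at members (54.5%) and 2 (9.09%) at regions that set B also held. BAP1, the catalytic subunit of the deubiquitinase that removes H2AK119ub1, had a RING1 fold of 6.41 and an RNF2 fold of 5.20, and its region also reached PHF7. USP16, another H2A deubiquitinase, had 5.07 and 5.75, and RBBP4, a histone-binding subunit of PRC2, had 4.50 and 6.50. Within CpG-rich promoters 11 of 18 of these genes (61.1%) had a member at the 5′ end. Trithorax and SWI/SNF genes, whose products oppose Polycomb silencing, had 17 of 37 (45.9%) at members and 13 (35.1%) at regions that set B also held. Among the members were CXXC1, at its 3′ end, with 5.59 and 5.30, ARID1A with 4.89 and 5.52 and ARID1B with 5.01 and 4.31.

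Genes for making proteins formed another large group. Translation initiation factors had 22 of 48 genes at members (45.8%), and 19 of 38 (50%) within CpG-rich promoters. EIF4A1, the RNA helicase of the cap-binding complex, had a RING1 fold of 8.28 and an RNF2 fold of 5.12 in a region shared with SENP3, EIF4B, its cofactor, had 5.87 and 5.06, and EIF4E1B, a cap-binding relative, had 6.77 and 4.57 at a 3′ end. Cytosolic ribosomal genes had 32 of 88 (36.4%), among them RPS13 with 6.06 and 5.34 and RPS19 with 5.19 and 5.84, both of the small subunit. tRNA synthetases had 15 of 37 (40.5%), led by LARS1 with 5.05 and 5.35, CARS2 with 5.48 and 5.03, and WARS2 with 4.98 and 5.48. Within CpG-rich promoters the ribosomal share was 33.8%, near the 32.4% of all such promoters.

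Splicing genes had 25 of 61 at members (41%), with SRSF2, a serine-arginine splicing factor, at a RING1 fold of 5.97 and an RNF2 fold of 5.89, SNRPE, of the Sm core, at 5.79 and 6.07, and SF3A3, of the U2 particle, at 5.39 and 5.52. RNA polymerase subunits had 10 of 33 (30.3%) and 11 of 33 at regions that set B also held, and POLR2A, the largest subunit of RNA polymerase II, had a member with 5.05 and 5.97. Mediator subunits had 10 of 30 (33.3%), with MED25 at 3.90 and 5.20. Their share was 27.3% within CpG-rich promoters, below the 32.4%, and below the background with peaks of a −log10 q of at least 2. Nuclear pore genes had 8 of 23 (34.8%), led by NUP85 with 5.28 and 5.39. Within CpG-rich promoters the nuclear pore and RNA polymerase shares were each 33.3%, near the 32.4%.

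Replication genes had 16 of 43 at members (37.2%). POLE2 and POLD2, accessory subunits of DNA polymerases epsilon and delta, had RING1 folds of 5.35 and 4.85 and RNF2 folds of 5.11 and 5.96, and CDC7, the kinase that fires origins, had 4.76 and 6.45. Replication-dependent histone genes, which lie in clusters, had 33 of 69 genes (47.8%) at 19 regions, since neighbours often shared 1. H3C1 and H4C1 shared a region with folds of 5.37 and 5.96, and H2AC13, H2BC13 and H3C10 shared one with 5.14 and 6.57. With 1 gene counted per region the histone share was 34.5%, against 21.7% of all genes counted that way.

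Ubiquitin-conjugating enzymes had 15 of 36 genes at members (41.7%) and 8.33% at regions that set B also held. UBE2J2, of endoplasmic reticulum protein degradation, had a RING1 fold of 5.75 and an RNF2 fold of 5.33, and UBE2Q2 had 5.10 and 6.72. Proteasome genes had 16 of 48 (33.3%), led by PSME2, an activator subunit, with 5.46 and 7.52 and PSMG1, an assembly chaperone, with 4.60 and 7.16. Their share within CpG-rich promoters was 34.3%, near the 32.4% of all such promoters. Vesicle traffic genes had 46 of 126 (36.5%), led by SNX15, SNX32 with 6.47 and 7.65, and SEC16A, which organises exit sites of the endoplasmic reticulum, with 6.30 and 6.20. Cilium and centrosome genes had 22 of 65 (33.8%), led by CEP57L1 with 5.36 and 7.17, IFT27 with 5.25 and 5.48 and CEP68 with 5.41 and 4.84, but 30.2% within CpG-rich promoters, below the 32.4% of all such promoters.

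Mitochondrial genes stood nearer to the background. The respiratory chain had 28 of 95 genes at members (29.5%), led by COX5A with a RING1 fold of 5.02 and an RNF2 fold of 5.36, NDUFS8 with 4.84 and 5.69, and NDUFB11 with 4.62 and 5.99. Mitochondrial ribosomal genes had 22 of 77 (28.6%), led by MRPL24 with 5.15 and 5.75, MRPL17 with 4.87 and 5.06, and MRPL34 with 4.67 and 4.73. The MRPL24 region lay 1105 bp from the annotated gene end, while the RefSeq promoter printed above starts inside it. Genes named ZNF had 137 of 509 (26.9%), close to the 24.9% of all genes. Within CpG-rich promoters the shares of these 3 lists were 31.9%, 26.9% and 31.8%, all below the 32.4% of such promoters. Both mitochondrial lists fell below the background when peaks of a −log10 q of at least 2 were used.

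The developmental transcription factor lists had few members. Of 301 HOX, other homeobox, forkhead, T-box, SOX and bHLH genes, 28 (9.3%) had a member and 227 (75.4%) a region that set B also held. A region with a set B peak cannot be a member, and 289 of all protein-coding genes had both kinds of region. The low member share is therefore tied to the 75.4% by the choice of regions and is no separate finding. The same limit applies to other lists with a high share at regions that set B also held. None of the 39 HOX cluster genes had a member, and all 39 lay at regions that set B also held. Other homeobox genes had 8 of 127 (6.3%), led by PRRX1, OTX2 with a RING1 fold of 4.20 and an RNF2 fold of 5.00 over 9042 bp at its 3′ end, and IRX6 with 4.11 and 4.17. Forkhead, T-box and SOX genes had 13 of 87 (14.9%), led by TBX6 with 6.06 and 6.35 in a region shared with YPEL3, FOXJ1, the factor of motile cilia, with 5.37 and 5.20, and FOXA3 with 4.68 and 4.88. The developmental bHLH list, in which ID genes are counted as relatives, had members at 7 of 48 genes (14.6%). It was led by FERD3L, ID3 with 4.80 and 5.39 and ID1 with 3.99 and 5.92. The ID3 region lay 1383 bp from the 3′ end of the gene and reached no 5′ end of it.

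The developmental members were wide where they existed. Their median widths were 2913.5 bp for homeobox genes, 2456 bp for bHLH genes and 1617 bp for forkhead, T-box and SOX genes, against 1172 bp for all members. Their median RING1 folds were 4.01, 3.98 and 3.97, against 3.99 for all members. Signalling ligands had 11 of 75 genes at members (14.7%) and 46.7% at regions that set B also held. FGF17 led them with a RING1 fold of 5.85 and an RNF2 fold of 6.55 over 8813 bp, ahead of FGF22 with 4.40 and 4.62 and WNT8B with 4.25 and 5.97. The WNT8B region lay 1426 bp from the 3′ end of that gene and covered an end of SEC31B. Ion channel genes had 31 of 136 (22.8%), led by SCN8A with 4.94 and 5.996, KCNQ5 with 4.50 and 5.33, and KCNA4 with 4.44 and 4.44.

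Tissue-restricted gene families were nearly empty. Of 392 olfactory receptor genes 1 had a member, OR4D1, whose region lay 1882 bp away, and none of 149 keratin and keratin-associated genes had one. Clustered protocadherins had 2 of 53, PCDHAC1 with a RING1 fold of 6.38 and an RNF2 fold of 5.46 and PCDHAC2 with 3.63 and 3.65, against 41.5% at regions that set B also held. Cytokines and their receptors had 8 of 149 (5.37%), led by IFNAR1 with 4.55 and 5.74, IL17D with 4.61 and 4.48, and IFNAR2 with 4.35 and 4.68.

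Marker genes of cell types cannot check the identity of the cells here, since a peak is not expression. Of 12 neural progenitor markers, 2 had members, NES, an intermediate filament gene, with a RING1 fold of 4.35 and an RNF2 fold of 5.22, and VIM with 4.14 and 4.44, and 7 had regions that set B also held. None of 10 neuronal and none of 10 mesoderm and endoderm markers had a member, whereas 5 and 9 had regions that set B also held. Of 9 pluripotency markers, LIN28A, 1917 bp from its region, UTF1 and DNMT3B had members, with RING1 folds of 5.65, 4.37 and 3.48 and RNF2 folds of 7.48, 3.65 and 3.36.

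The choice of regions keeps set B peaks out of the members, and the distance to the nearest one is given as a description. It lay a median of 106777 bp away (quartiles 35935.5 and 260050), and within 5 kb for 133 members (3.18%). The authors' consolidated file lists 4255 regions, and 0 of the 4179 members met one, against 3098 of the 3098 gene-end regions that set B also held. That file followed the lists closely, since 4239 of the 4240 merged regions with RNF2 peaks in both sets met it, so its lack of members follows from the choice of regions and is no separate finding.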

How the data were processed

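Peaks were called by the authors from CUT&RUN libraries of wild-type H9 neural progenitor cells, 1 list per antibody and library. MACS2 2.2.9.1, deepTools 3.5.2, BWA 0.7.17, Picard 2.8.1, bedtools 2.30.0 and SAMtools 1.9 are listed in the submitters' processing notes, with build hg38. The control for peak calling is not given in the sources used. The fold of a peak is a ratio as deposited by the authors. The deposited −log10 values are of q-values. The deposited coordinates and the authors' consolidated file carry no measurement. Library depth is not given, so no counting interval was computed for a peak or region.

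Peaks of the 4 lists were merged where they overlapped or touched, with Python 3.11.15, numpy 2.4.6, pandas 2.3.3 and SciPy 1.17.1, and figures were drawn with matplotlib 3.10.9. Where a list had several peaks in a region, the highest fold was used. Gene positions came from the RefSeq table of GRCh38.p14, the assembly behind hg38. Strand came from the RefSeq promoter table for 15843 of 20037 genes, whose start equals the annotated 5′ end for 83.8%. The merging step was tested on simulated data.

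The members and gene lists were chosen with earlier results of these data known, and list patterns were corrected after a first run. Named genes are those at the 10 regions with the largest smaller-of-both fold, the 5 widest, 5 narrowest and 5 nearest the median, up to 3 per gene list, the 3 regions on either side of the 2 kb limit, and RING1 and RNF2; further end joining genes were named after their values were seen. A few genes under this rule are not reported here. Alternatives varied the distance, merging, significance, overlap, chromosomes and set B lists. Cutting set A to the length of set B, counting 1 gene per region, taking CpG-rich promoters, and using the longest set A peak in place of the merged width were chosen after seeing the data.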

Additional observations from a re-analysis of the deposited data

How the results depend on the processing

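Counts of 4179 members and 4980 genes stayed within 1.5 times under windows of 1 kb (4044 and 4766) and 5 kb (4475 and 5568), merging within 1 kb, a −log10 q of at least 2, an overlap of 50% of the shorter peak, chromosomes 1 to 22, no set B peak within 5 kb, and 5′ ends only. With peaks of a −log10 q of at least 5 there were 747 members at 992 genes. Leaving out 1 set B list at a time gave 4184 to 7037 members and 4986 to 8257 genes, the higher values without the RNF2 list. Set A lists cut to the length of set B lists, chosen after seeing the data, left 89 members at 114 genes, and 6 gene lists above the background in place of 22. That setting has fewer peaks by construction, and 16 lists changed side, among them end joining, cytosolic and mitochondrial ribosome, splicing, replication-dependent histones, PRC1, and Trithorax and SWI/SNF. With a −log10 q of at least 2, 20 lists stood above and 4 changed side (ion channels, Mediator, respiratory chain, mitochondrial ribosome). The median width was 1180 bp with peaks within 1 kb merged, against 1172 bp. The median folds with the mean of a list's peaks per region were 3.99 and 4.26. With 1 gene per list and region 23 lists stood above the background, and in CpG-rich promoters 17 of 33; cilium and centrosome, Mediator, respiratory chain, mitochondrial ribosome and ZNF genes were then below. No paired analysis was possible because the peak lists carry no replicate number and no test was run. Depth is unknown, so an uncalled region in set B may lie below what those libraries could show.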

Other observations

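Some members covered the starts of neighbouring genes that run in opposite directions. Of the 4179 members, 941 (22.5%) reached ends of several genes, against 25.6% of the gene-end regions that set B also held. Among members, 427 (10.2%) reached 5′ ends on opposite strands, and 310 were divergent pairs whose starts lay a median of 199.5 bp apart (quartiles 123 and 314.75). For the opposite-strand and divergent counts, no share over other regions was taken. The strongest by the smaller of both folds was the pair NPRL2 and CYB561D2, 87 bp apart, with a RING1 fold of 6.77 and an RNF2 fold of 10.001. NPRL2 is a subunit of GATOR1, which restrains mTORC1. SKIC3, of the cytosolic mRNA decay complex SKI, and ARSK, a lysosomal sulfatase, followed at 124 bp with folds of 6.38 and 7.23. GPC2, a glypican, and STAG3, a meiotic cohesin subunit, shared a region with 5.74 and 5.62.

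The germline and kinetochore lists stood below the 24.9% of all genes. The 95% intervals of their shares, 4.19% to 26.8% and 3.63% to 29.8%, both included it. Germline genes had 5 of 40 at members (12.5%) and 0 at regions that set B also held, led by STAG3, SMC1B, another meiotic cohesin gene, with folds of 4.37 and 5.80, and DMC1, the meiotic recombinase, with 6.06 and 4.71. Kinetochore genes had 4 of 31 (12.9%), led by CENPU with 4.63 and 5.06 and CENPT with 4.29 and 6.51. By chromosome, the share of autosomal genes at a member was lowest on chromosome 4 (156 of 770 genes) and highest on chromosome 20 (155 of 537, or 28.9%). It was 15.7% on X, where 6.72% of genes were at a region that set B also held, and 0 of 63 genes on Y had a member.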
